A study of Mus musculus with 16 samples.

Results

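The data below describe 9 genes of the complement system in mouse pulmonary endothelial cells (ECs) during acute lung injury. The 9 were taken by gene symbol out of the 54532 genes in each expression table. They encode the 3 chains of C1q (C1qa, C1qb, C1qc), the central component C3, complement factor B (Cfb), the receptors for the C3a and C5a fragments (C3ar1, C5ar1), and the inhibitors decay-accelerating factor (Cd55) and C1 inhibitor (Serping1). Bulk RNA-seq was performed on 16 libraries in 4 groups from 2 experiments.

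In the first experiment, wild-type (WT) C57/BL6J males aged 8 weeks received saline (n = 4) or 10 mg/kg of lipopolysaccharide (LPS), a component of the Gram-negative bacterial wall, into the trachea (n = 6). In the second, Fgfr1 loxP/loxP mice (n = 3) and Fgfr1 iΔEC/iΔEC mice (n = 3) both received LPS at a lower dose, 2 mg/kg. Fgfr1 encodes a fibroblast growth factor receptor. The iΔEC/iΔEC mice carry a tamoxifen-inducible Cre recombinase under the VE-cadherin promoter, which is active in ECs, and both genotypes received tamoxifen. The loxP/loxP mice lack that Cre, so a Cre control without floxed alleles is not part of the comparison. Every library of the second experiment comes from a mouse given LPS, and no saline arm for these genotypes was analysed here. The study deleted Fgfr1 in adult mice, whose exact age and sex are not given in the sources used here. All cells were collected 24 h after instillation, depleted of CD45-bearing cells and then selected for CD31 with magnetic beads. The labels number the libraries but do not say that each one is a separate animal, so the p-values measure the spread between libraries.

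Complement is a cascade of plasma proteins that can be started through antibody and C1q (the classical pathway), through sugar-binding proteins (the lectin pathway) or by C3 itself together with factor B (the alternative pathway). All routes cleave C3, and later C5, and release the small fragments C3a and C5a, which act on receptors of leukocytes. Liver makes most circulating C3, whereas C1q is mainly a product of macrophages and dendritic cells, and ECs carry membrane inhibitors of the cascade. In the injured lung, C5a and its receptor are known for drawing in and activating neutrophils.

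All 9 genes lie on the minus strand of the mouse genome (GRCm38) and are annotated as protein coding. The C1q genes stand side by side on chromosome 4, C1qb at chr4:136880129-136886187, C1qc at chr4:136889804-136893065 and C1qa at chr4:136895917-136898803, within a span of 18675 bases. C3 (ENSMUSG00000024164) is at chr17:57203970-57228136 and Cfb (ENSMUSG00000090231) at chr17:34856374-34862518. C3ar1 is at chr6:122847138-122856161, C5ar1 at chr7:16246743-16259540, Cd55 at chr1:130439027-130462744 and Serping1 at chr2:84765387-84775444. Cfb overlaps the annotated genes Gm20547 and Mir6972, and C3 overlaps Mir6978, all with 0 reads in every saline and LPS library. Cd55 overlaps Gm16083, which had at most 5 reads in a saline or LPS library. Reads of these overlapping genes in the Fgfr1 mice were not looked up. How the counting treated reads shared between overlapping genes is not given in the sources used here.

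Promoter sequence was found in the RefSeq promoter table (GRCm38.p6) for 6 of the 9 genes. Each window, from 250 bases before to 50 bases after the start, was searched on both strands for 4 motifs of inflammatory transcription factors. The NF-kB motif was present in 8.46% of all 32851 promoters, the interferon element GAAANNGAAA in 3.44%, the STAT element TTCNNNGAA in 8.3% and the C/EBP motif TTGCNNAA in 10.8%. Among the 6 complement promoters, 1 held the NF-kB motif (C1qc), 1 held the C/EBP motif (C3), and none held either of the others within this window. The 150 bases before the start are printed for C3, which had the highest level of the 9 in the LPS-treated Fgfr1 mice, for C1qb, which rose most on the log2 scale with LPS, and for Cd55, the 1 gene that fell. Each is written 5′ to 3′ on the minus strand, with the C/EBP match of C3 in capitals, and no match in C1qb and Cd55. The C1qc window is not printed because its RefSeq start lies 151 bases inside the annotated gene given above, so that its NF-kB match is within that gene.
C3, chr17:57228137-57228286: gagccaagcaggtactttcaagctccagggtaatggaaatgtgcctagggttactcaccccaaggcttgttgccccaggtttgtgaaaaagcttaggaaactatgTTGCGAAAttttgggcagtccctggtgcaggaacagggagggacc
C1qb, chr4:136886201-136886350: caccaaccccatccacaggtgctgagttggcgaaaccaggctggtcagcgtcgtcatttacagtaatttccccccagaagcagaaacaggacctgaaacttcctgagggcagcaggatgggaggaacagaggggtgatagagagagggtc
Cd55, chr1:130462745-130462894: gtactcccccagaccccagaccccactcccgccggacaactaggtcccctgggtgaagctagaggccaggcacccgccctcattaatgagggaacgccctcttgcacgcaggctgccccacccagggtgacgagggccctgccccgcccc
A match of letters describes the sequence and is not evidence that the factor binds there.

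Reads assigned to genes numbered 13478726 to 18807007 per library in the saline group and 17840221 to 19043015 in the LPS group. They ranged from 15969575 to 17002788 in the loxP/loxP group and from 16642177 to 16943522 in the iΔEC/iΔEC group. Levels are given as FPKM, fragments per kilobase of transcript scaled to a library size, which allows genes of different length to be compared within a library. The library size behind the deposited values was not the number of reads on genes. It was 2.21e+07 in saline 2, with 18807007 reads, and 1.62e+07 in LPS 2, with 18133012 reads. Fold changes are on the log2(FPKM + 1) scale, where the added 1 understates the change of low genes. A gene is said to have risen or fallen when limma's moderated test, adjusted by Benjamini-Hochberg over all genes tested, gave a p of 0.05 or less with a log2 change of at least 1.

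The libraries carried EC markers at high levels along with markers of other cells, and these markers differed between groups. Pecam1, which encodes CD31, ranged from 234 to 516 FPKM over the saline and LPS libraries and was present in all others. Saline 1 stood apart from the other saline libraries, most of all in monocyte and neutrophil transcripts. The summed FPKM of 6 monocyte markers was 124 in saline 1 but 12.3, 11.7 and 11.0 in saline 2, 3 and 4. The 8 neutrophil markers summed to 1380 FPKM in saline 1, 69.5 in saline 2, 307 in saline 3 and 74.1 in saline 4. Saline 1 was also the highest of its group in the EC sum (5849 against 3473 to 4280 FPKM) and the epithelial sum (2649 against 1003 to 1968 FPKM). The same held for the general leukocyte, macrophage and mural sums, but not for lymphocyte markers. Saline 1 had the fewest reads of all libraries. Saline 3 in turn had the lowest lymphocyte marker sum of its group, 24.0 FPKM against 104 to 134. The values without saline 1, or without saline 1 and saline 3 together (a choice made after seeing the data), are given below for C5ar1, Itgam, Cd55 and Cr2.

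After LPS at 10 mg/kg, 7 of the 9 complement genes rose, Cd55 fell, and Serping1 did not pass the test. The C1q chains had the largest changes on the log2(FPKM + 1) scale, and with LPS all 3 were among the 1487 most abundant of 14893 genes. By the ratio of means, C3ar1 (81.4-fold) lay between C1qb and C1qc. All 9 genes passed the filter on low values, a mean of 0.5 FPKM over the comparison. Cfb and C3ar1, with saline means of 0.109 and 0.106 FPKM, passed it only through the LPS libraries. With no filter on low values the count called higher was also 7. Among the 14893 genes tested, 11.9% were called higher and 6.79% lower, and in 39.4% the saline and LPS values did not overlap. Of the 9 complement genes, 7 had groups that did not overlap, all of them higher with LPS, Cfb and C3ar1 included. The median log2 change was 3.13 over the 9 genes and 0.01 over all genes tested. The 9 were chosen with earlier results of these data known, so their counts and median describe them only. Because these are bulk samples, more cells of a type cannot be told apart from more RNA per cell.

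C1q is the recognition molecule of the classical pathway and is built from equal numbers of its A, B and C chains. C1qa was at 1.74, 0.913, 0.485 and 2.59 FPKM in saline 1 to 4, and at 46.7 (lowest), 82.4 (median) and 130 (highest) FPKM with LPS. C1qb was at 2.71, 0.955, 0.875 and 2.38 FPKM in the saline libraries and at 89.9, 158 and 245 FPKM with LPS. C1qc was at 0.431, 0.515, 0.232 and 1.53 FPKM in saline and at 21.9, 40.7 and 66.8 FPKM with LPS. Every LPS library was therefore well above every saline library for each chain, and LPS 5 was the highest and LPS 6 the lowest of the LPS libraries for C1qa, C1qb and C1qc alike. By limma, C1qb rose by 5.86 ± 0.32 (SE) on the log2 scale (adjusted p = 5.80e-07), C1qa by 5.11 ± 0.32 (adjusted p = 1.10e-06) and C1qc by 4.63 ± 0.31 (adjusted p = 1.53e-06). The group means differed 93.2-fold for C1qb, 58.5-fold for C1qa and 61.9-fold for C1qc. By level, C1qb moved from rank 11309 of 14893 genes in saline to rank 352 with LPS.

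C3 is the protein on which all activation routes meet. It was already present in saline-treated lungs, at 19.3, 14.0, 9.35 and 13.5 FPKM in saline 1 to 4. With LPS it was at 115 (lowest), 122 (median) and 161 (highest) FPKM, and the groups were far apart. The mean was 14.1 ± 4.08 FPKM in saline (SD, n = 4) and 128 ± 17.0 FPKM with LPS (SD, n = 6), a 9.11-fold difference. On the log2 scale the rise was 3.13 ± 0.18 (SE) by limma (adjusted p = 6.65e-07). C3 moved from rank 3440 to rank 448 of the 14893 genes.

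Factor B supplies the protease of the alternative pathway convertase. Cfb had 2 to 8 reads per saline library, which gave 0.161, 0.0320, 0.0991 and 0.144 FPKM in saline 1 to 4. The LPS libraries had 118 to 248 reads, or 2.57 (lowest), 4.11 (median) and 4.77 (highest) FPKM. No LPS library came near the saline range. Cfb rose by 2.11 ± 0.15 (SE) on the log2 scale (limma, adjusted p = 1.77e-06), while the ratio of the means was 35.5. Of the 7 genes that rose, Cfb had the lowest level with LPS.

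The 2 anaphylatoxin receptors rose from different starting levels. C3ar1, the receptor for C3a, had 5 to 15 reads per saline library, at 0.105, 0.157, 0.0650 and 0.0944 FPKM. With LPS it was at 5.81 (lowest), 7.83 (median) and 13.7 (highest) FPKM, and limma gave a log2 change of 3.06 ± 0.21 (SE, adjusted p = 1.63e-06). C5ar1, the main receptor for C5a and abundant on neutrophils and monocytes, was at 10.1, 1.21, 3.20 and 0.731 FPKM in saline 1 to 4. It was at 29.1, 69.8 and 118 FPKM with LPS. Saline 1 was the highest saline library for C5ar1, as it was for the neutrophil and monocyte markers, yet it stayed below all LPS libraries. C5ar1 rose by 4.18 ± 0.49 on the log2 scale (adjusted p = 5.73e-05 by limma), the least precise of the 7 rises, and by 4.72 without saline 1. C5ar1 was above C3ar1 in 16 of 16 libraries. A two-sided exact permutation test over the libraries gave p = 0.00952, the smallest it can give with 4 against 6, for each of the 7 genes that rose. All 7 were still called higher when any 1 library was left out, saline 1 included.

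**Figure D1:**
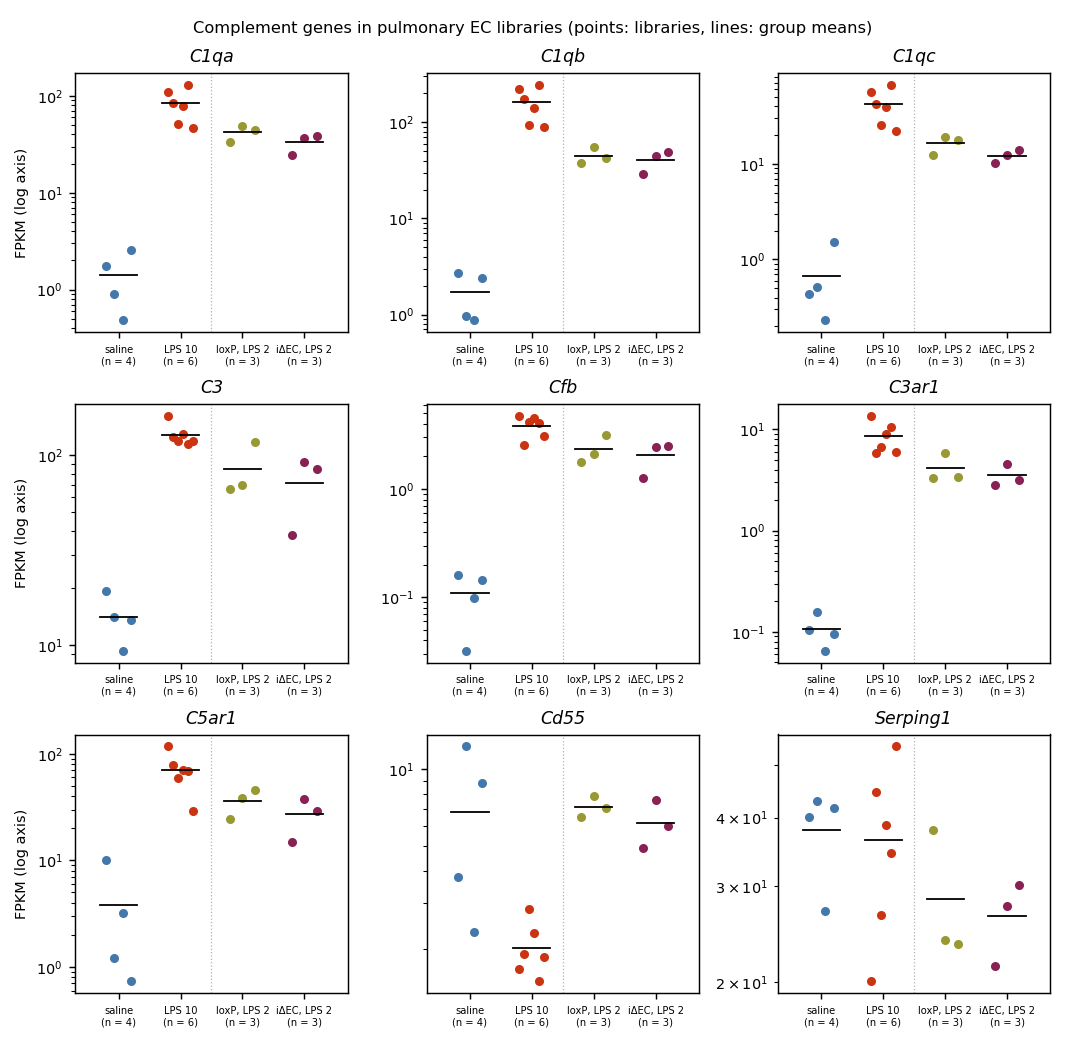
Level of each complement gene in every library, in FPKM on a log axis, for saline (n = 4), LPS at 10 mg/kg (n = 6), and the loxP/loxP and iΔEC/iΔEC groups given LPS at 2 mg/kg (n = 3 each), with points for libraries and lines for group means. For 7 genes every LPS point lies above every saline point, as for C3 with saline at 9.35 to 19.3 and LPS at 115 to 161 FPKM, whereas Cd55 and Serping1 overlap between saline and LPS, and all 9 overlap between the Fgfr1 genotypes.

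Decay-accelerating factor, the product of Cd55, takes apart the C3 and C5 convertases on the cell's own surface. Cd55 was at 3.79, 12.2, 2.32 and 8.85 FPKM in saline 1 to 4 and at 1.49 (lowest), 1.88 (median) and 2.85 (highest) FPKM with LPS. Saline 2 and saline 4 were high, whereas saline 3 lay inside the LPS range, so the groups overlapped. Cd55 fell by 1.18 on the log2 scale (SE 0.33, limma adjusted p = 0.0116), and a two-sided exact permutation test gave p = 0.019. The mean was 3.38 times as high in saline as with LPS. The fall rested on saline 2 and saline 4: the log2 change was -0.85 without saline 2 and -0.996 without saline 4, both short of the limit, and -1.94 when saline 1 and saline 3 were left out together. Scaling the libraries on the 10 EC markers brought the log2 change to -0.63 (limma adjusted p = 0.149). The call was also lost with the library number as a block (-1.10, limma adjusted p = 0.0569) and with a pseudocount of 5 FPKM.

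C1 inhibitor, the product of Serping1, blocks the proteases C1r and C1s. In saline-treated mice Serping1 had the highest level of the 9 genes, at 40.2, 42.8, 27.0 and 41.7 FPKM in saline 1 to 4. With LPS it ranged from 20.0 through a median of 36.7 to 54.1 FPKM, on both sides of the saline values. Its log2 change was -0.10 ± 0.25 (SE, limma adjusted p = 0.746) with a 95% interval from -0.66 to 0.45, so a change of up to about these sizes cannot be told from none. The sign depended on the scaling, since scaling on the EC markers gave 0.60 (limma adjusted p = 0.0268). Serping1 was above C3 in all 4 saline libraries, and C3 was above Serping1 in all 6 LPS libraries.

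**Figure D2:**
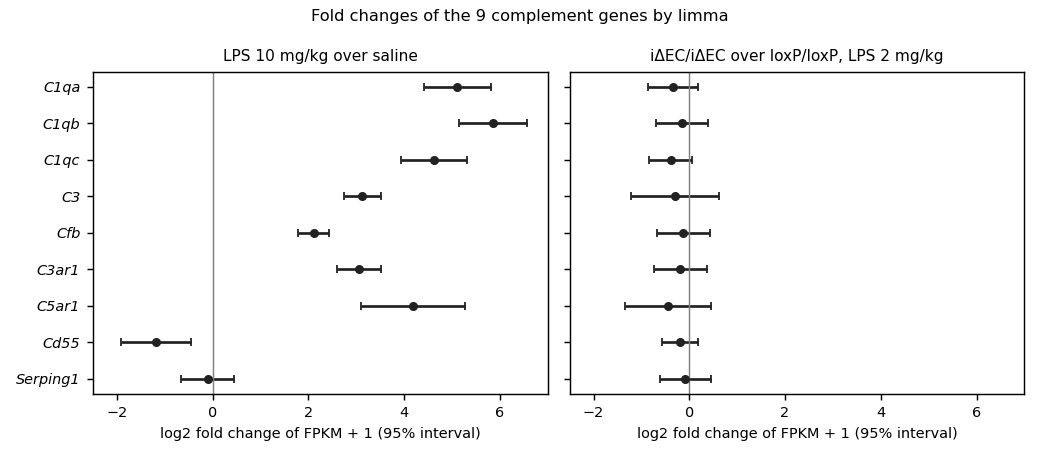
Log2 fold changes of FPKM + 1 by limma with 95% intervals, for LPS over saline (left) and for iΔEC/iΔEC over loxP/loxP at 2 mg/kg LPS (right), 1 row per gene. On the left 7 intervals lie above 0 and that of Cd55 below it. On the right all 9 points lie left of 0, between -0.45 and -0.08. Their intervals, from the fit without pairing, include 0. Serping1 on the left turns to 0.60 when the libraries are scaled on the EC markers.

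The rest of the pathway was examined with a list of 48 further complement genes. Of these, 26 passed the filter, 5 rose, 6 fell, 4 more passed the test higher and 5 more lower with changes under the limit, and 6 did not pass. The median log2 change of the 26 was 0.00, against 3.13 for the 9 genes described above, and 13 changes were positive and 13 negative. Both lists were chosen with earlier results of these data known, so these medians describe the lists only. In 16 of the 26 the saline and LPS values did not overlap. Over all genes tested the shares were 11.9% called higher, 6.79% called lower and 39.4% not overlapping. Without the limit on the fold, 4399 of the 14893 genes passed higher and 3529 lower.

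Of 2 alternative pathway genes, Cfp rose and Cfd did not pass the test. Properdin, the product of Cfp, stabilizes the alternative pathway convertase and is made by leukocytes. Cfp was at 14.3, 4.30, 7.32 and 6.64 FPKM in saline 1 to 4 and at 81.2 (lowest), 156 (median) and 231 (highest) FPKM with LPS, a log2 rise of 4.15 by limma. The Cfp ranges were widely separated, as for the C1q chains. Its rise was 3.92 to 4.43 with any 1 library left out. Cfd, which encodes factor D, was at a mean of 1.02 FPKM in saline and 0.247 FPKM with LPS.

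Among 7 receptor genes, 6 were tested, 3 rose and 1 fell. The genes that rose encode the subunits of complement receptors 3 and 4, which bind fragments of C3 and are integrins of myeloid cells. Itgam went from a mean of 1.33 to 73.8 FPKM (log2 change 5.09), Itgb2 from 17.7 to 344 FPKM (4.31) and Itgax from 2.64 to 27.7 FPKM (2.95). Without saline 1, where Itgam was highest among the saline libraries, its change was 5.44. Cr2, complement receptor 2 of B cells, fell by 1.13 on the log2 scale, from 0.792, 2.81, 0.490 and 2.60 FPKM in saline 1 to 4 to at most 0.352 FPKM with LPS. Like Cd55, Cr2 was high in saline 2 and saline 4 and low in saline 1 and saline 3. Its change was -1.72 when saline 1 and saline 3 were left out together, and fell short of the limit without saline 2 (-0.91) or saline 4 (-0.94). Cd93, a receptor abundant on ECs that was once proposed to bind C1q, was at a mean of 246 FPKM in saline and 304 FPKM with LPS and did not pass the test (log2 change 0.26, 95% interval -0.19 to 0.72). Its sign depended on the scaling, at 0.99 with scaling on the EC markers (limma adjusted p = 0.00131) and -0.36 with quantile normalization (limma adjusted p = 0.280).

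No terminal pathway gene rose. All 4 that were tested passed lower, and the changes of 2 of them exceeded the limit. Over all 14893 genes tested, 3529 passed lower and 4399 higher. Hc encodes C5, the source of C5a. Hc was at 10.9, 6.72, 5.51 and 4.94 FPKM in saline 1 to 4 and at 0.607 (lowest), 0.911 (median) and 1.10 (highest) FPKM with LPS, a fall of 2.03 on the log2 scale. C5 transcripts were thus low in all LPS libraries, in which the transcript of its fragment's receptor was high. C7, a part of the membrane attack complex, went from a mean of 27.4 to 13.1 FPKM (log2 change -1.03) with overlapping ranges, and its change fell short of the limit without LPS 1, 2 or 5 or saline 2 or 4 (-0.99 to -0.91). C8g, with a mean of 2.89 FPKM in saline and 1.34 with LPS, and C6, with 1.24 and 0.615 FPKM, were the other 2. C6 passed narrowly (limma adjusted p = 0.0485) and no longer passed with quantile normalization (0.105), with the replicate block (0.0801) or in 8 of the 10 fits that left out 1 library. With scaling on the EC markers only Hc of the 4 passed, and the adjusted p was 0.609 for C6, 0.303 for C7 and 0.314 for C8g.

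Of 16 genes for recognition and for proteases of the classical and lectin pathways, 6 were tested. Colec12, a scavenger receptor with a collectin domain, fell from a mean of 13.9 to 4.74 FPKM (log2 change -1.39). C1ra, the protease that C1q activates, passed the test at 0.99, just short of the limit, with means of 10.1 and 21.5 FPKM, and C4b passed at 0.75. C1s1, the protease downstream of C1r, did not pass (-0.21). The proteases that bind C1q were thus detected in saline, where C1q itself was low.

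Of 16 regulators, 8 were tested. Thbd encodes thrombomodulin, an EC surface protein that restrains both coagulation and complement, and it had the highest level of the 26 genes in saline. It fell by 1.10 on the log2 scale, from a mean of 590 to 287 FPKM, and the change was -0.92 without LPS 1. Vtn (vitronectin) fell by 1.29, and C1qbp, a mitochondrial protein that also binds C1q, rose by 1.06 but fell short of the limit with quantile normalization (0.83), total-read scaling (0.88) and limma-voom (0.92). Clu (clusterin), at a mean of 72.6 FPKM in saline and 39.2 with LPS, passed the test at -0.90, short of the limit. Scaling on the EC markers moved the median of all genes by 0.56 and left Hc as the single gene of the 6 still called lower, although no gene of the 11 called changed sign.

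**Figure D3:**
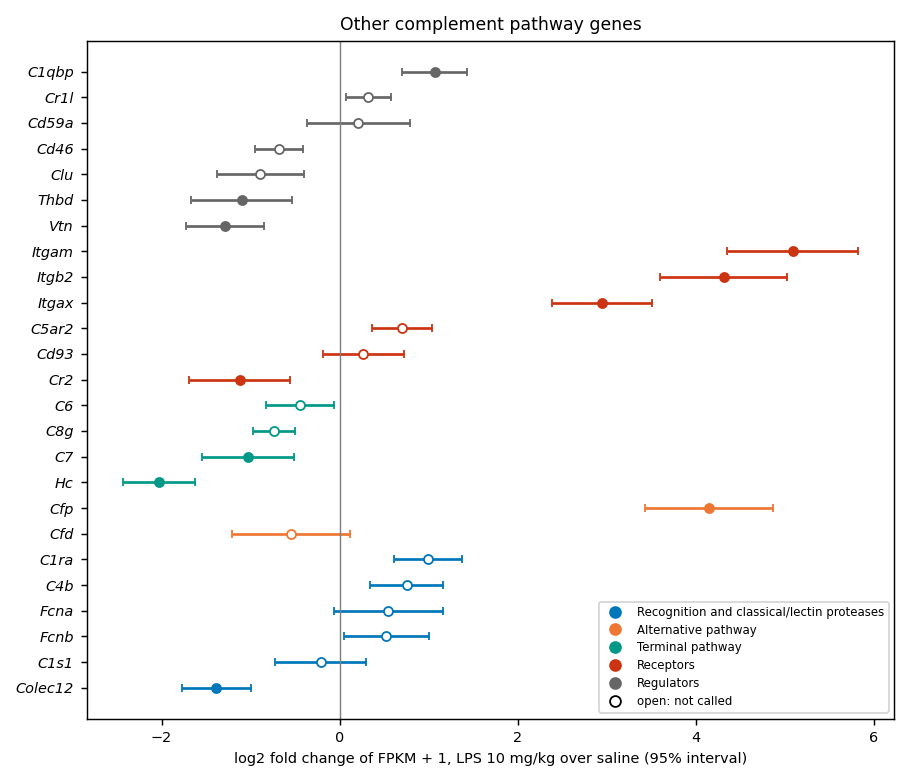
Log2 fold changes of FPKM + 1 for LPS over saline, with 95% intervals by limma, of 25 of the 26 further complement genes tested, coloured by role, with filled points for genes called and open points for the rest. The receptors Itgam, Itgb2 and Itgax and the alternative pathway gene Cfp stand far to the right at 2.95 to 5.09, while all 4 terminal pathway genes lie left of 0.

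Markers of other cell types moved in the same comparison. All 6 leukocyte markers rose, with a summed level of 76.5 to 227 FPKM in saline and 641 to 1554 FPKM with LPS (most abundant Coro1a). Of 10 macrophage markers, 6 rose, and the sum went from 186 to 311 FPKM in saline to 763 to 1584 FPKM with LPS. The most abundant macrophage marker was Apoe in saline (mean 95.2 FPKM) and Chil3 with LPS (mean 548 FPKM). Csf1r, the receptor that defines the macrophage and monocyte lineage, was at 3.60 to 14.1 FPKM in saline and 128 to 303 FPKM with LPS. Marco, of alveolar macrophages, was at 0 in saline 1 alone. The other 4 did not rise: Apoe (log2 change 0.46), Mrc1 (0.15) and Mertk (-0.10) did not pass the test, and Siglecf, also of alveolar macrophages, passed lower at -0.53 (limma adjusted p = 0.0402).

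All 6 monocyte markers rose (Cd14, the most abundant, from a mean of 25.9 to 498 FPKM), and 7 of 8 neutrophil markers rose, with the most abundant, S100a9, going from a mean of 259 to 1864 FPKM and Ly6g at 0 in saline 4. The neutrophil sums were 1293 to 6638 FPKM with LPS, and the value of saline 1, 1380, fell inside that range. Lymphocyte markers went the other way, with 3 of 5 tested called lower and sums of 24.0 to 134 FPKM in saline and 12.1 to 48.4 FPKM with LPS. Their most abundant gene was the B-cell gene Cd79a, at a mean of 54.6 and 16.7 FPKM. None of the 10 EC markers was at 0 in any library. Of these, 3 fell, and the mean log2 level of the list was lower by 0.72 with LPS (two-sided exact permutation p = 0.00952).

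Of 10 epithelial markers, 9 were tested and 2 fell (most abundant Sftpc, mean 1316 FPKM in saline and 280 with LPS), none of 6 fibroblast markers tested passed the fold limit (most abundant Col3a1, 15.4 and 8.51 FPKM), 2 of 7 mural markers fell (most abundant Acta2, 27.1 and 31.2 FPKM), and 3 of 4 erythroid markers rose (most abundant Hba-a1, 6.97 and 19.2 FPKM). The 4 mesothelial markers, of which Msln was the most abundant, summed to at most 0.646 FPKM in every library and were not tested. The part of other cell types in the changes of the complement genes was not tested.

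**Figure D4:**
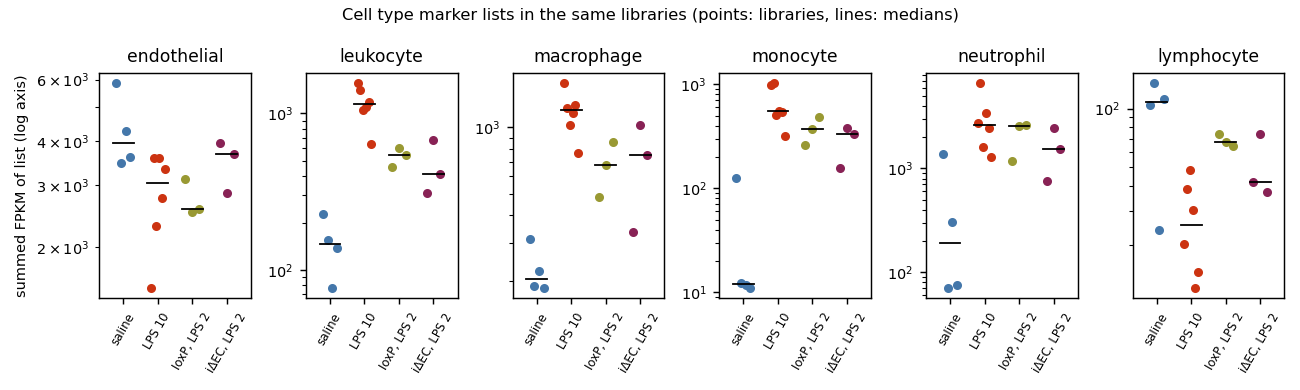
Summed FPKM of 6 cell type marker lists in every library on log axes, with points for libraries and lines for group medians. Leukocyte, macrophage and monocyte sums are higher in every LPS library than in every saline library. Saline 1 is the highest of its group in every panel but that of lymphocytes, by most for monocytes and neutrophils. EC marker sums are 3473 to 5849 in saline and 1524 to 3596 FPKM with LPS.

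How the 9 genes varied among libraries of the same group was described by Pearson's r of log2(FPKM + 1) after subtracting the group mean, over the 16 libraries and 14192 genes. The values are descriptive, since libraries share depth and cell composition. The closest genes to C1qa were its neighbours C1qb (r = 0.957) and C1qc (r = 0.943), followed by Prmt7 (r = 0.852). C1qb was likewise closest to C1qa, then to Prmt7 (r = 0.917) and Sdf2l1 (r = 0.895), and C1qc was closest to C1qa, Gm10134 (r = 0.870) and C1qb (r = 0.860). The receptors lay with other genes. C3ar1 was close to Htr7 (r = 0.940) and Tnfrsf11a (r = 0.930), and C5ar1 was closest to Lgals3 (r = 0.977), Apobr (r = 0.976) and Gsr (r = 0.967). Cd55 was closest to Fcer2a (r = 0.958) and Chst3 (r = 0.958), and to Cr2 (r = 0.957), of which Fcer2a and Cr2 encode B-cell receptors. Some of these values differed between the tables: Cd55 with Fcer2a had r = 0.981 in the saline and LPS libraries and 0.569 in the Fgfr1 mice, C1qc with Gm10134 0.936 and 0.343, and C1qa with Prmt7 0.896 and 0.509. C3 was closest to Ezr (r = 0.918), Mmp19 (r = 0.879) and Rufy4 (r = 0.876), Cfb to Lrp12 (r = 0.916), Abcd2 (r = 0.897) and Pstpip2 (r = 0.896), and Serping1 to Gpx3 (r = 0.923), Col13a1 (r = 0.888) and Gm4956 (r = 0.884). C3 and Cfb varied together in the Fgfr1 mice (r = 0.981, 6 libraries) and less so in the saline and LPS libraries (r = 0.285, 10 libraries). Other pairs among the 9 also differed, as Cfb with C5ar1 (0.921 and 0.333) and, in the other direction, Cfb with C3ar1 (0.176 and 0.774). These differences were not tested.

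The second experiment asks whether loss of Fgfr1 in ECs changes these genes in the LPS-injured lung. Fgfr1 itself, which checks the labels, was at 2.90, 2.91 and 2.59 FPKM in the loxP/loxP libraries, whereas iΔEC/iΔEC 1 to 3 had 0.683, 1.41 and 1.15 FPKM, so the groups did not overlap. The log2 change was -0.88 ± 0.16 (SE) without pairing, with an adjusted p of 0.960 by limma over all genes. A two-sided exact permutation test gave p = 0.1, the smallest that 3 against 3 allows. A fit with the library number as a block gave Fgfr1 an SE of 0.152 and a limma adjusted p of 0.526. No gene of the 14944 tested was called (0% of them, smallest adjusted p 0.732 by limma), although 663 had an unadjusted p under 0.05, and 0 were called under any alternative, limma-voom on the recovered reads included. In 10.2% of the genes the genotypes did not overlap.

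None of the 9 complement genes was called between the genotypes, none had an unadjusted p under 0.05 without pairing, and none had groups that did not overlap. With the library number as a block, limma gave unadjusted p-values of 0.0171 for C1qc, 0.0191 for C1qa and 0.0454 for C5ar1, which were 0.592, 0.592 and 0.640 after adjustment over all genes. The SEs of C1qc, C1qa and C5ar1 in that fit were 0.109, 0.0975 and 0.166, so 95% intervals from it exclude 0. All SEs and 95% intervals printed below for the genotypes are from the fit without pairing. All were present at clear levels. C3 was at 66.5, 70.0 and 118 FPKM in loxP/loxP 1 to 3 and at 38.0, 91.6 and 85.1 FPKM in iΔEC/iΔEC 1 to 3. The low value belonged to iΔEC/iΔEC 1, and the other 2 lay inside the loxP/loxP range. The log2 change of C3 was -0.29 ± 0.38 (SE, limma adjusted p = 0.966), with a 95% interval from -1.21 to 0.63, and without iΔEC/iΔEC 1 it was 0.11. C3 ranked 574 of 14944 genes by level in the loxP/loxP mice and 713 in the iΔEC/iΔEC mice.

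C1qa was at 33.4, 48.6 and 44.5 FPKM in loxP/loxP and at 24.8, 36.7 and 38.4 FPKM in iΔEC/iΔEC. C1qb was at 38.1, 55.0 and 42.2 FPKM and at 29.2, 45.1 and 48.6 FPKM, and C1qc at 12.4, 19.1 and 17.7 FPKM and at 10.2, 12.2 and 14.0 FPKM. The ranges of each chain overlapped, with iΔEC/iΔEC 1 the lowest throughout. Among the 9, C1qc had the interval that reached least above 0 without pairing, a log2 change of -0.39 ± 0.19 (SE, 95% interval -0.84 to 0.06, limma adjusted p = 0.960). For C1qa the change was -0.34 (95% interval -0.85 to 0.17) and for C1qb -0.15 (-0.70 to 0.40).

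Cfb was at 1.77, 2.11 and 3.14 FPKM in loxP/loxP and at 1.27, 2.44 and 2.50 FPKM in iΔEC/iΔEC, a log2 change of -0.13 (95% interval -0.68 to 0.42). C3ar1 was at 3.33, 5.83 and 3.35 FPKM and at 2.82, 4.55 and 3.14 FPKM, a change of -0.18 (-0.73 to 0.37). C5ar1 was at 24.4, 38.3 and 45.6 FPKM and at 14.7, 38.0 and 29.0 FPKM, a change of -0.45 (-1.35 to 0.45). For these 3 genes, too, the lowest library of the 6 was iΔEC/iΔEC 1. C5ar1 had the largest change in size of the 9, and its interval spans more than 1 log2 unit below 0. The change was -0.07 when iΔEC/iΔEC 1 was left out and its same-numbered loxP/loxP 1, the lowest of that group, was kept, while C5ar1 was lower in iΔEC/iΔEC in 3 of 3 same-numbered pairs.

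Cd55 was at 6.51, 7.85 and 7.05 FPKM in loxP/loxP and at 4.94, 7.55 and 5.99 FPKM in iΔEC/iΔEC (log2 change -0.20, 95% interval -0.57 to 0.17). Serping1 was at 37.9, 23.9 and 23.4 FPKM and at 21.4, 27.6 and 30.1 FPKM (-0.08, 95% interval -0.61 to 0.44). Both inhibitors overlapped between the genotypes, and loxP/loxP 1 alone was high for Serping1.

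The log2 changes of all 9 genes were negative, with a median of -0.20, against 0.01 over all genes tested. In iΔEC/iΔEC, library 1 was the lowest for all 9 genes, and it was also the lowest in the leukocyte (308 against 409 and 674 FPKM), macrophage (335 against 750 and 1022), monocyte (158 against 333 and 379) and neutrophil (756 against 1550 and 2455) marker sums, and the highest in the EC sum (3954 against 3683 and 2846). Over the groups, 6 of 6 leukocyte markers (median log2 change -0.24), 8 of 8 neutrophil markers (-0.48), 6 of 6 lymphocyte markers (-0.42) and 10 of 10 epithelial markers (-0.68) had negative changes, whereas 9 of 10 EC markers (0.31) and 4 of 4 erythroid markers (0.33) had positive ones, none of them called. The macrophage list had a median of -0.05 (8 of 10 negative) and the monocyte list a median of 0.03 (4 of 6 positive). The part of these markers in the lower values was not tested. Without that library the changes of C3, C1qb, Cfb and Serping1 were positive, at 0.11, 0.07, 0.08 and 0.05, and those of the other 5 genes stayed negative. Within the pairs of libraries that share a number, the iΔEC/iΔEC library was the lower in 3 of 3 pairs for C1qa, C1qc, C3ar1, C5ar1 and Cd55, in 2 of 3 for C3, C1qb and Cfb, and in 1 of 3 for Serping1.

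**Figure D5:**
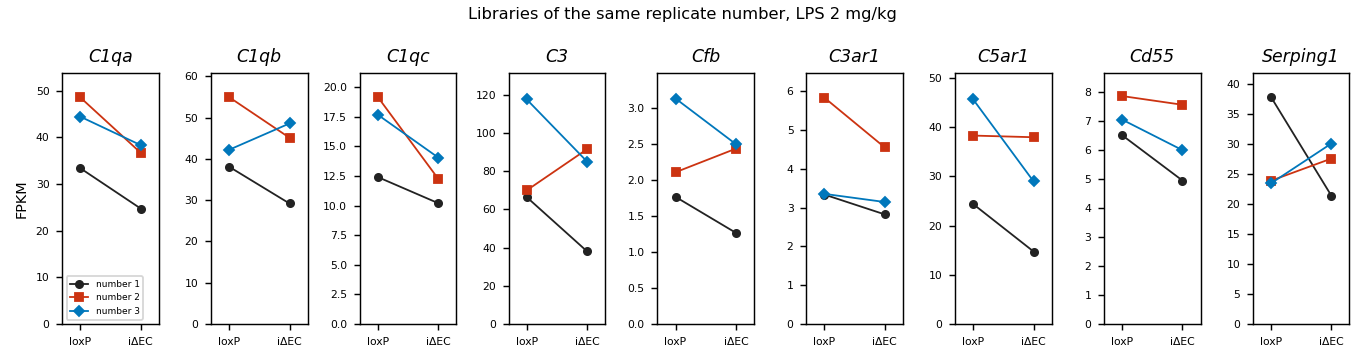
Level in FPKM of each complement gene in the loxP/loxP and iΔEC/iΔEC libraries at 2 mg/kg LPS, with lines joining libraries that share a replicate number and axes that start at 0. Library 1 of iΔEC/iΔEC is the lowest of its group in all 9 panels, and lines cross in several panels, those of C3, C1qb and Serping1 among them.

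Of the 48 further complement genes, 24 were tested in the Fgfr1 mice, none was called, and the median log2 change was -0.17, with 17 negative and 7 positive. The groups did not overlap for 3 of them. C1s1 had means of 8.94 and 4.78 FPKM (log2 change -0.77), Cr2 1.16 and 0.567 FPKM (-0.48), and Cd93, the EC receptor, 287 and 421 FPKM (0.56), each with an adjusted p of 0.960 by limma. Such genes were 3 of 24 here, against 10.2% of all genes tested. No marker list had a called gene in this comparison.

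The experiments were normalized separately and differed in dose and genotype, so their levels can only be set side by side. With LPS at 2 mg/kg, C3 had means of 84.7 and 71.6 FPKM in the 2 genotypes, between the 14.1 FPKM of saline-treated and the 128 FPKM of LPS-treated WT mice. The same order held for the C1q chains, Cfb, C3ar1 and C5ar1. Cd55 differed from them, with means of 7.14 and 6.16 FPKM in the Fgfr1 mice, near the saline mean of 6.80 and above all 6 libraries of WT mice given 10 mg/kg. Cfp was at means of 42.7 and 37.6 FPKM in the Fgfr1 mice, between the 8.15 and 158 FPKM of the WT groups, and Hc was at 1.24 and 0.394 FPKM, against 7.02 and 0.898 FPKM in the WT groups.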

How the data were processed

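The authors aligned reads to the mouse genome (mm10) with HISAT2 2.0.5 and counted them per gene with featureCounts 1.5.0-p3, per the labels, and deposited FPKM in 2 tables of 54532 genes, 1 per experiment. Annotation release, strandedness and trimming are not given in the sources used here. In 11 rows the symbols differed between the tables (turned into dates in one), and those of the first were used. From FPKM and gene length, whole reads were recovered for every value (tolerance 0.05), which gave read numbers and depth. Reads without molecular identifiers are not independent molecules, and the intervals cover the spread between libraries.

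Genes averaging 0.5 FPKM or more in a comparison were tested on log2(FPKM + 1) with limma 3.58.1 (lmFit, eBayes with trend, R 4.3.3), adjusted by Benjamini-Hochberg over all genes. FPKM was used as deposited. Single values were also compared by two-sided exact permutation (scipy 1.17.1). The fitting code was also run on simulated counts with known changes in few genes and the same spread setting for all genes. These data are less simple, so that run checks the code and not the results. Same-numbered libraries of the 2 Fgfr1 groups deviated together (r = 0.248, 0.177 and 0.187 over genes). In the saline and LPS groups they did not (r = 0.0972, -0.162, -0.209 and -0.117). The main fits used no pairing in either experiment. For the Fgfr1 groups the pairs entered the replicate block, an alternative fit, and the counts of same-numbered pairs. No 2 libraries of a group agreed within sampling noise. All 9 genes, every further complement gene called, the most abundant others of each role, the 3 genes closest to each of the 9 and the most abundant marker of each list were to be named; 2 genes under this rule are not reported here. The 9 genes and all lists were chosen with earlier results of these data known. Alternatives covered pseudocounts, filters, scalings, limma-voom, the replicate block and libraries left out.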

Additional observations from a re-analysis of the deposited data

Results flagged for a closer look

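Of 42 sets of values in groups of 4 to 6 libraries, 4 had 1 library set well apart (chance gives about 2.1). C3 was at 161 FPKM in LPS 1, against 115 to 129 FPKM in the other LPS libraries. Serping1 had 27.0 FPKM in saline 3, where saline 1, 2 and 4 had 40.2 to 42.8 FPKM. Fgfr1 was at 5.52 FPKM in saline 1 and at 2.82 to 3.17 FPKM in saline 2 to 4. Itgam was at 3.42 FPKM in saline 1 and at 0.576 to 0.724 FPKM in saline 2 to 4.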

How the results depend on the processing

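The 7 complement genes that rose with LPS kept their call in every left-out-library fit (count 7), and across the other settings the count was 6 to 7, with Cfb at 0.79 under a pseudocount of 5 FPKM. The size of the low genes' change depended on the pseudocount and on limma-voom, from 0.79 to 5.02 on the log2 scale for Cfb and from 1.38 to 6.03 for C3ar1. The count of complement genes that fell (Cd55) was 0 with a pseudocount of 5 FPKM, with scaling on the EC markers and with the replicate block, and 0 to 1 with a library left out. With the block, Cd55 changed by -1.10 (limma adjusted p = 0.0569); in the saline and LPS groups the libraries share only a number. With a library left out its change was -1.52 to -0.85. Serping1 with LPS was at 0.60 under EC scaling and -0.25 to 0.05 with a library left out (0.048 without LPS 1). Of the further complement genes with LPS, 8 rose with a pseudocount of 0.1 FPKM, 8 with EC scaling, 9 with no limit on the fold, and 4 with a pseudocount of 5 FPKM, quantile normalization or total-read scaling; 11 fell by limma-voom on the recovered reads, 2 with a pseudocount of 5 FPKM, 1 with EC scaling, 11 with no limit on the fold, and 4 to 7 with a library left out. Over all genes, 1768 were called higher and 1011 lower with LPS, against 1024 and 312 with a pseudocount of 5 FPKM, 4342 and 207 with EC scaling, 4399 and 3529 with no limit on the fold, 2672 lower by limma-voom and 1840 lower with a pseudocount of 0.1 FPKM. EC scaling moved the median log2 change of all genes to 0.57, limma-voom to -0.19 and total-read scaling to -0.15. The causes were not tested. Between the Fgfr1 genotypes the sign turned with a library left out for C3 (-0.52 to 0.11), C1qb (-0.29 to 0.07), Cfb (-0.25 to 0.08), C3ar1 (-0.34 to 0.03) and Serping1 (-0.20 to 0.14); for C3, C1qb, Cfb and Serping1 this was iΔEC/iΔEC 1 (0.11, 0.070, 0.077 and 0.054), for Cfb also loxP/loxP 3 (0.037), for C3ar1 loxP/loxP 2 (0.033) and for Serping1 also loxP/loxP 1 (0.14). With the replicate block 0 genes were called there too (smallest limma adjusted p 0.301, 1150 genes with an unadjusted p under 0.05). Depth limits Cfb and C3ar1 in saline most, at 2 to 15 reads per library.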

Other observations

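The proportions of the C1q transcripts are given here by group, and the experiments were normalized separately. The ratio of C1qb to C1qa FPKM was 1.79 to 2.05 in the 6 LPS libraries, 0.949 to 1.14 in the loxP/loxP libraries and 1.18 to 1.27 in the iΔEC/iΔEC libraries. In saline 1 to 4, where few reads stood behind it, the ratio was 1.55, 1.05, 1.81 and 0.920. The ratio of C1qc to C1qa was 0.247 to 0.589 in saline, 0.469 to 0.515 with LPS at 10 mg/kg, 0.371 to 0.397 in loxP/loxP and 0.333 to 0.412 in iΔEC/iΔEC. No explanation was tested.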
